A study of Mus musculus with 12 samples.

Results

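The interferon-stimulated genes described here are Ifit1, Ifit2, Ifit3, Isg15, Irf7, Oas1a, Usp18, Rsad2 and Gbp2. They were taken by symbol, and all 9 were found among the 24411 genes of the table and passed the filter on low counts, which left 13922 genes. Liver RNA came from 3 mice of each of 3 genotypes at 3 months of age, all on a C57BL/6 background and all homozygous for the loxP-flanked Atg7 allele (Atg7flox/flox). Control mice carried no Cre. Atg7-KO mice carried Alb-Cre in addition, which is driven by the albumin promoter and so deletes Atg7, an enzyme that autophagosome formation requires, in hepatocytes but not by design in the other cells of the liver. Atg7-KO;p62T352A mice carried the same alleles and were also homozygous for a threonine-to-alanine exchange in the endogenous p62 gene (Sqstm1), made by prime editing in embryonic stem cells. The study made this exchange to alter the affinity of p62, a selective autophagy receptor, for KEAP1, the inhibitor of the transcription factor NRF2. Another 3 mice with the exchange and without Cre have labels but were not analysed here, so an effect of the exchange without loss of Atg7 was not measured.

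Interferons are secreted signals of antiviral defence. Type I interferons bind the receptor IFNAR1-IFNAR2 and type II interferon binds IFNGR1-IFNGR2. Janus kinases at these receptors phosphorylate transcription factors that enter the nucleus. Complexes that contain IRF9 bind the interferon-stimulated response element, and the response to type II interferon also uses the gamma-activated site. Hepatocytes as well as Kupffer cells, other macrophages and endothelial cells of the liver respond to interferon.

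Before the results, the libraries were checked. They held between 9671080 and 23285132 counts. Atg7 was at 44.2 to 55.4 normalised CPM (read counts scaled to a common library size) in control, 9.57 to 12.0 in Atg7-KO livers and 27.4 to 29.7 in Atg7-KO;p62T352A mice, a log2 fold change of -2.20 in Atg7-KO against control (adjusted p = 2.55e-05, edgeR). The third genotype thus lay between the others in every mouse, and the part of this in its results was not tested. Sqstm1 was at 314 to 505, 871 to 960 and 497 to 626 CPM in the 3 genotypes in the same sequence. Xist, the RNA of the inactive X chromosome, was at most 1.35 CPM in the mouse numbered 1 of each genotype and at least 373 CPM in the others, so the mice numbered 1 differed from the others in every genotype alike. The main fit had no term for this difference, which therefore entered the spread between mice of a genotype. Replicates of a genotype differed by far more than counting noise, with a chi-square of 14.0 to 310 per degree of freedom, and no library was a copy of another. P-values measure the spread between these mice.

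The members act at several steps of the response. Irf7 encodes a transcription factor that amplifies interferon genes, and Usp18 an isopeptidase that removes ISG15 from proteins and restrains signalling at IFNAR2. Isg15 encodes a ubiquitin-like modifier. Ifit1, Ifit2 and Ifit3 encode tetratricopeptide proteins of which IFIT1 binds viral RNA by its cap. Oas1a encodes an oligoadenylate synthetase that activates RNase L, Rsad2 encodes viperin, a radical SAM enzyme of the endoplasmic reticulum and lipid droplets, and Gbp2 encodes a guanylate-binding GTPase that is also induced by interferon gamma. In the GENCODE annotation of GRCm38 the 3 Ifit genes are neighbours on the plus strand of chromosome 19, with Ifit2 at chr19:34550694-34576419, Ifit3 at chr19:34583531-34588731 and Ifit1 at chr19:34640871-34650009, 99316 bases from the first base of Ifit2 to the last of Ifit1. Rsad2 lies at chr12:26442746-26456452 on the minus strand, and Cmpk2, another interferon-stimulated gene, starts 12751 bases beyond it on the plus strand. Oas1a is at chr5:120896256-120907521 (minus), Isg15 at chr4:156199424-156200818 (minus), Irf7 at chr7:141262706-141266481 (minus), Usp18 at chr6:121245906-121270917 (plus) and Gbp2 at chr3:142620602-142638008 (plus). The values are sums over all exons of a gene, coding and untranslated. Of the stretches of 75 bases, the read length, in the transcripts of Ifit3, 41.1% also occurred in Ifit3b, and 47.6% of those of Oas1a occurred in Oas1g. The counts of these 2 members are therefore uncertain with respect to their neighbours. The share was 5.19% for Ifit1 (with Ifit1bl2), 0.955% for Gbp2 (with Gbp2b) and 0 for Ifit2, Isg15, Irf7, Usp18 and Rsad2.

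Promoters are shown because the members moved together in Atg7-KO livers and apart in Atg7-KO;p62T352A livers. RefSeq (GRCm38.p6) gave an entry of 300 bases around the start, 250 before it and 50 after it, for 8 of the 9 members. Both strands were searched for GAAANNGAA, the core of the interferon-stimulated response element, which occurred in 6 of the 8 and in 8.56% of all 32851 promoters of that length in the table. The gamma-activated site, searched as TTCNNNGAA, occurred in 2 of the 8 (Ifit2 and Oas1a) and in 8.30% of all, and TGACNNNGC, the core of the antioxidant response element to which NRF2 binds, in 2 of the 8 (Irf7 and Rsad2) and in 12.4% of all. No match of one motif overlapped a match of another. Each line gives 180 bases before the start and 20 from it on, 5′ to 3′ on the strand of the gene, with the response element core on either strand in capitals (a match on the opposite strand reads as its reverse complement). The gamma-activated site match of Ifit2 and both antioxidant matches lie further upstream than these windows. The first 3 genes are those whose level in Atg7-KO;p62T352A was not told apart from that in Atg7-KO, the next 2 were called lower than in Atg7-KO with means above those of control, and the last 2 had the largest falls against Atg7-KO. The windows are chr12:26456433-26456632 (minus strand), chr19:34640709-34640908 (plus strand), chr4:156200799-156200998 (minus strand), chr19:34583349-34583548 (plus strand), chr5:120907506-120907705 (minus strand), chr19:34550514-34550713 (plus strand) and chr3:142620483-142620682 (plus strand).
Rsad2: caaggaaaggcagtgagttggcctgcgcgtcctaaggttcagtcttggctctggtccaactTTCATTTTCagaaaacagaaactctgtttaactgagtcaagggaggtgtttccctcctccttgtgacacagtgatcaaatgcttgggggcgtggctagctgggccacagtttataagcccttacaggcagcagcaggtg
Ifit1: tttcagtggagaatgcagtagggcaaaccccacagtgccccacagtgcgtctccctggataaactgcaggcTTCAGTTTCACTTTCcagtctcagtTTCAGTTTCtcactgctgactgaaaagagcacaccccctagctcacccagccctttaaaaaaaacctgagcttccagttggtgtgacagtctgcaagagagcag
Isg15: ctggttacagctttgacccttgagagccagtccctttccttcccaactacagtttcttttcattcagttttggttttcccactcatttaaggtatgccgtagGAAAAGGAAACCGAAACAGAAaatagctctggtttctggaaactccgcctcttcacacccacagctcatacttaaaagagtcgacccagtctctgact
Ifit3: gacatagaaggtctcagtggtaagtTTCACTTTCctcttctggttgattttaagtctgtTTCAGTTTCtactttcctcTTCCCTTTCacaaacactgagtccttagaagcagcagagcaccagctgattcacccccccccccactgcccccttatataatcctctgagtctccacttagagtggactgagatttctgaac
Oas1a: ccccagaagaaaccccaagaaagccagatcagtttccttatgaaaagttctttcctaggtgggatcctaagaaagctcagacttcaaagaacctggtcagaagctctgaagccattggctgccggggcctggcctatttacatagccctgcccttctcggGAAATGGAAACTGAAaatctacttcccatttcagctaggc
Ifit2: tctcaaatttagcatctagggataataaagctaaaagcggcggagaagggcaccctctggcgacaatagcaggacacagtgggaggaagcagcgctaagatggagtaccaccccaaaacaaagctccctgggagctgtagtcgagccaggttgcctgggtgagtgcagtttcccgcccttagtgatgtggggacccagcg
Gbp2: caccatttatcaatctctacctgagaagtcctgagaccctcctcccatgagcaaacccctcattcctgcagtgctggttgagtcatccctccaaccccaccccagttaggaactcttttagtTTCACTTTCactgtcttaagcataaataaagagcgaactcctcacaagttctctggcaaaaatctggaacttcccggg
Rsad2 and Gbp2 held 1 match each, Ifit1, Isg15 and Ifit3 held 3, and Oas1a held 2, with overlaps among those of Ifit1, Isg15 and Oas1a. The match of Rsad2 began 119 bases before the start and that of Gbp2 58 bases before it. Neither of the 2 RefSeq windows of Ifit2 held the core, nor did that of Irf7, and cores outside the windows were not searched for. The bases just after the start were not found as 1 stretch in a GENCODE transcript for Irf7, Ifit3, Oas1a and the second window of Ifit2.

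All 9 members were higher in Atg7-KO than in control livers, between 4.10-fold for Usp18 and 36.4-fold for Rsad2. Of all tested genes, 21.6% were called higher in this comparison and 22.1% lower. A gene was called at an adjusted p (Benjamini-Hochberg, edgeR's quasi-likelihood test) under 0.05 and a fold change over 1.5. The median log2 fold change of the members was 3.38, against -0.03 over all tested genes. In every member the lowest Atg7-KO mouse was above the highest control mouse, a separation in this direction that 29.2% of all tested genes showed.

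Rsad2 was at 18.1, 17.6 and 24.7 CPM in the control mice numbered 1, 2 and 3, at 636, 721 and 840 in the Atg7-KO mice and at 699, 241 and 1452 in the Atg7-KO;p62T352A mice. The Atg7-KO mice were close to each other, whereas the Atg7-KO;p62T352A mice lay on both sides of them and 1 was far below the others. Its log2 fold change in Atg7-KO against control was 5.19 ± 0.60 (SE, adjusted p = 0.00018, edgeR). Ifit1 was at 11.3, 12.1 and 18.8 CPM in control, 130.4, 213 and 193 in Atg7-KO and 171, 122 and 393 in Atg7-KO;p62T352A mice, a rise of 3.67 ± 0.46 in Atg7-KO on the log2 scale (adjusted p = 0.000266, edgeR). Isg15 was at 7.22, 7.28 and 8.90 CPM in control, 62.6, 85.8 and 93.9 in Atg7-KO and 47.6, 48.2 and 78.3 in Atg7-KO;p62T352A mice. It rose by 3.38 ± 0.27 in Atg7-KO (adjusted p = 2.99e-05, edgeR), and for both genes the mice of both Cre genotypes overlapped each other and none overlapped a control mouse.

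Irf7 was at 30.8, 39.2 and 43.0 CPM in control, 188, 208 and 213 in Atg7-KO and 105, 75.4 and 157 in Atg7-KO;p62T352A mice. Usp18 was at 11.1, 13.7 and 18.0 in control, 47.8, 63.2 and 63.7 in Atg7-KO and 23.3, 25.1 and 38.2 in Atg7-KO;p62T352A mice. Oas1a was at 4.41, 5.30 and 5.50 in control, 47.9, 61.6 and 64.3 in Atg7-KO and 11.1, 15.2 and 25.8 in Atg7-KO;p62T352A mice. For these 3 genes the 3 genotypes formed 3 steps with no overlap between any of them, and the Atg7-KO;p62T352A mice held the middle step. Over all tested genes, 36.8% had every Atg7-KO mouse above every Atg7-KO;p62T352A mouse and 15.5% had every Atg7-KO;p62T352A mouse above every control mouse. The rise in Atg7-KO was 2.43 ± 0.27 for Irf7, 2.04 ± 0.26 for Usp18 and 3.52 ± 0.32 for Oas1a on the log2 scale (SE, adjusted p = 0.000162, 0.000307 and 5.43e-05, edgeR). Oas1g, which shares sequence with Oas1a, was at 1.72 to 6.26 CPM in control, 22.3 to 31.8 in Atg7-KO livers and 6.00 to 16.8 in Atg7-KO;p62T352A mice, with control mouse 3 above the lowest of the latter. Oas1b, a further paralog, was at 0.860 to 7.09 CPM in control, 3.58 to 5.08 in Atg7-KO livers and 8.20 to 11.7 in Atg7-KO;p62T352A mice, and was not called in any of the 3 comparisons.

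Ifit3 was at 13.9, 18.0 and 30.2 CPM in control, 64.6, 109.8 and 102 in Atg7-KO and 29.8, 37.0 and 60.8 in Atg7-KO;p62T352A mice. All Atg7-KO mice were above all others, while the other 2 genotypes overlapped by 1 mouse. The rise in Atg7-KO was 2.16 ± 0.37 (SE, adjusted p = 0.00141, edgeR). Its neighbour Ifit3b was at 1.61 to 4.07, 20.9 to 40.4 and 4.71 to 8.22 CPM in the 3 genotypes in the same sequence.

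Ifit2 was at 7.11, 3.88 and 5.06 CPM in control, 69.2, 105 and 98.5 in Atg7-KO and 3.86, 5.46 and 9.86 in Atg7-KO;p62T352A mice. Gbp2 was at 6.36, 3.78 and 7.69 in control, 24.3, 31.9 and 34.8 in Atg7-KO and 2.14, 4.27 and 5.35 in Atg7-KO;p62T352A mice. In both genes the Atg7-KO mice stood alone and the other 2 genotypes overlapped. Ifit2 rose by 4.07 ± 0.38 in Atg7-KO (adjusted p = 6.64e-05, edgeR) and Gbp2 by 2.35 ± 0.35 (adjusted p = 0.00068, edgeR). Gbp2b, the next gene upstream on the same strand, did not share this pattern: it was at 5.20 to 10.0 CPM in control, 5.22 to 7.30 in Atg7-KO livers and 1.11 to 1.93 in Atg7-KO;p62T352A mice, a fall of the last group against control of -2.21 ± 0.32 on the log2 scale (SE, adjusted p = 0.00692, edgeR). This call was lost with only the 2 genotypes in the fit (adjusted p = 0.0522).

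**Figure D1:**
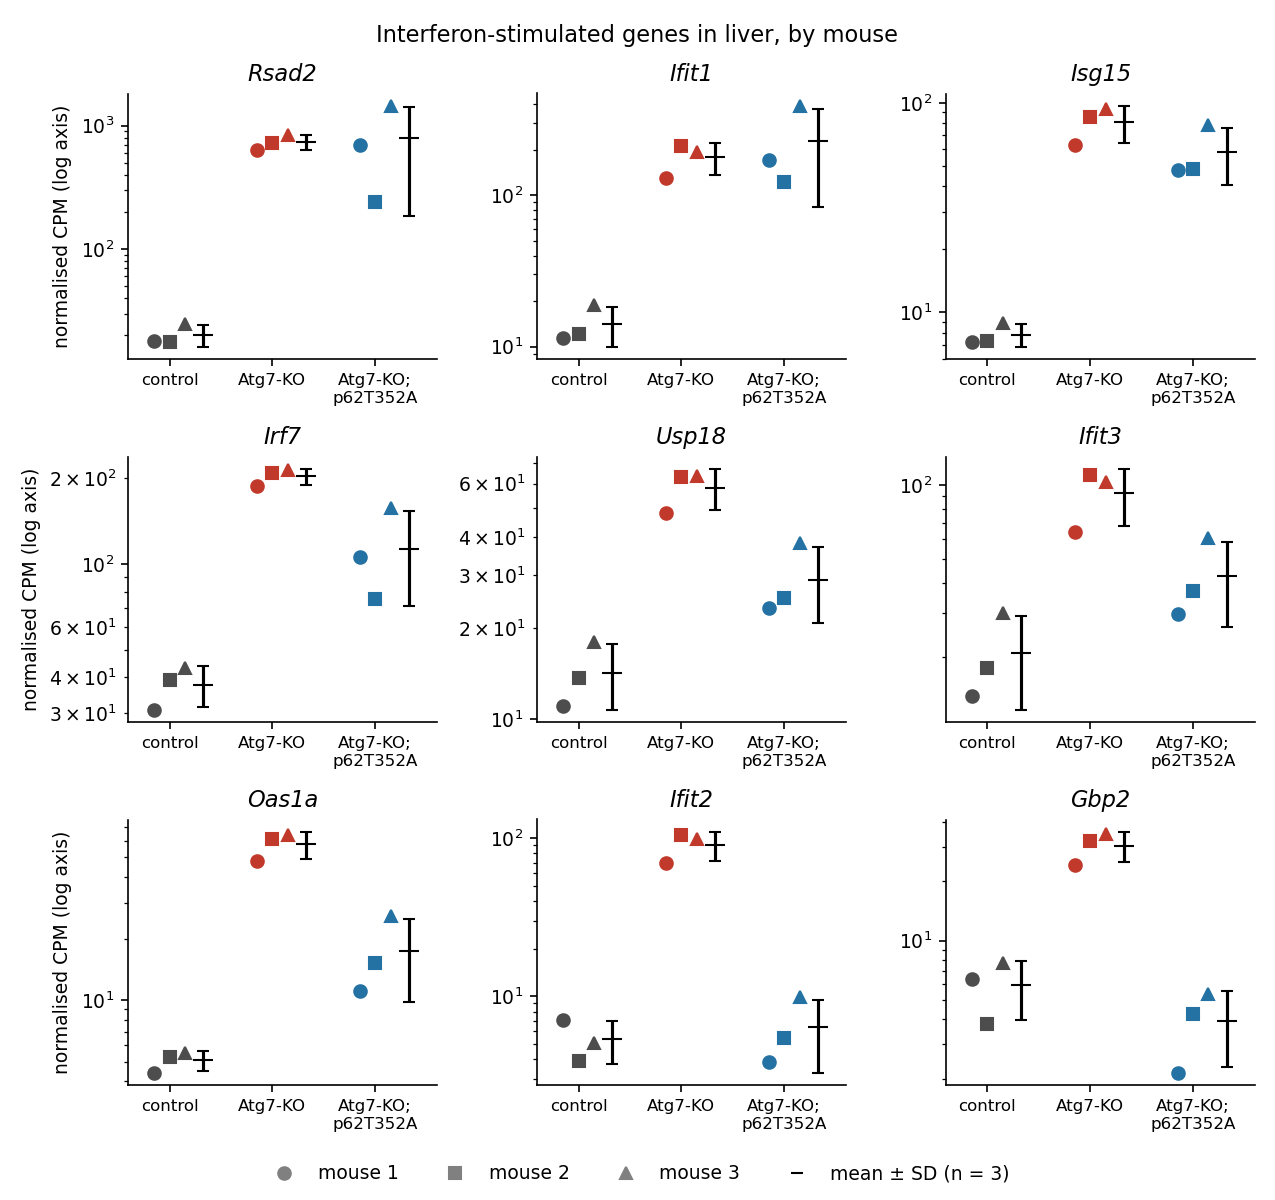
Normalised CPM (log axis) of the 9 genes in each mouse of the 3 genotypes, with mouse number as symbol and mean ± SD (n = 3) as bars. Every Atg7-KO mouse lay above every control mouse in all 9 panels, and the Atg7-KO;p62T352A mice reached from the Atg7-KO level (Rsad2, Ifit1, Isg15) down to an overlap with control (Ifit2, Gbp2).

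Per length of transcript, Rsad2 had the highest level of the members in Atg7-KO, at 169 ± 23.6 CPM per kb (SD, n = 3), followed by Isg15 at 107 ± 21.5, with no overlap between their mice. Ifit1 (67.3 ± 16.2), Irf7 (53.7 ± 3.52) and Ifit3 (52.9 ± 13.9) followed, each overlapping its neighbour in this order. Oas1a (30.7), Ifit2 (23.1) and Usp18 (20.9) overlapped likewise, and Gbp2 (12.1 ± 2.15) was the lowest without overlap. In control livers Ifit3 (11.9 ± 4.88), Isg15 (10.3 ± 1.26) and Irf7 (9.97 ± 1.66) were the highest, not separated from each other, and Rsad2 was sixth at 4.65 ± 0.92.

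In Atg7-KO;p62T352A against Atg7-KO, 6 of the 9 members were called lower and none higher, with 24.7% of all tested genes called higher and 26.2% lower. Ifit2 fell by 3.83 ± 0.38 on the log2 scale (SE, adjusted p = 8.6e-05, edgeR), Gbp2 fell by 2.95 ± 0.36 (adjusted p = 0.000217) and Oas1a fell by 1.74 ± 0.29 (adjusted p = 0.00102). Ifit3 (-1.12 ± 0.35, adjusted p = 0.0238), Usp18 (-1.01 ± 0.25, adjusted p = 0.00773) and Irf7 (-0.85 ± 0.26, adjusted p = 0.0199) were also lower. The calls of Ifit3 and Irf7 were lost without Atg7-KO mouse 2 (adjusted p = 0.0797 and 0.0574), without Atg7-KO mouse 3 (0.0698 and 0.0605), without Atg7-KO;p62T352A mouse 1 (0.0873 and 0.0659) or without Atg7-KO;p62T352A mouse 2 (0.0782 and 0.0533). Tested against a fold change of 1.5 (glmTreat), Ifit3 (adjusted p = 0.085), Irf7 (0.139) and Usp18 (0.0541) were not called.

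Rsad2, Ifit1 and Isg15 did not pass this test. Their log2 differences between Atg7-KO;p62T352A and Atg7-KO were 0.12 for Rsad2 (95% interval -0.99 to 1.23, adjusted p = 0.849, edgeR), 0.35 for Ifit1 (-0.56 to 1.26, adjusted p = 0.485) and -0.48 for Isg15 (-1.01 to 0.06, adjusted p = 0.116). These intervals are wide enough to hold a change of 1.5-fold in both directions for Rsad2, and in 1 direction for Isg15 and for Ifit1 upwards. Atg7-KO;p62T352A mouse 3 had the highest value of its genotype in all 9 members and set the sign for Rsad2 and Ifit1: without it their differences were -0.63 and -0.28, and Isg15 was called lower (-0.75, adjusted p = 0.0252).

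The 3 comparisons share groups of mice and the estimate of the spread, and so are not independent of each other. Against control, 6 members were called higher in Atg7-KO;p62T352A and none lower, where 6.25% of all tested genes were called higher and 5.34% lower. Rsad2 was higher by 5.31 ± 0.60 on the log2 scale (SE, adjusted p = 0.00322, edgeR), Ifit1 by 4.02 ± 0.46 (adjusted p = 0.00343) and Isg15 by 2.90 ± 0.26 (adjusted p = 0.00269). Without mouse 3 of Atg7-KO;p62T352A the values were 4.55 for Rsad2 and 3.38 for Ifit1, both still called. Oas1a (1.78 ± 0.30, adjusted p = 0.00973), Irf7 (1.58 ± 0.27, adjusted p = 0.00958) and Usp18 (1.02 ± 0.26, adjusted p = 0.0321) were higher by less. The call of Usp18 was lost when control mouse 2 (adjusted p = 0.0914), any of the 3 Atg7-KO mice (0.0546 to 0.0613) or Atg7-KO;p62T352A mouse 2 (0.0529) or 3 (0.114) was left out. With only the 2 genotypes compared in the fit, the calls of Oas1a and Irf7 (adjusted p = 0.0676 each) and Usp18 (0.116) were lost.

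Ifit3 (1.05, 95% interval 0.25 to 1.85, adjusted p = 0.0882), Ifit2 (0.25, -0.56 to 1.05, adjusted p = 0.70) and Gbp2 (-0.59, -1.39 to 0.20, adjusted p = 0.307) were not called against control. Ifit3 was called higher without control mouse 3, the highest of its genotype (adjusted p = 0.0377), with DESeq2 (0.0429) and with the mice numbered 2 and 3 only (0.0449). Ifit2 changed sign without control mouse 2 (-0.02) or Atg7-KO;p62T352A mouse 3 (-0.21).

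**Figure D2:**
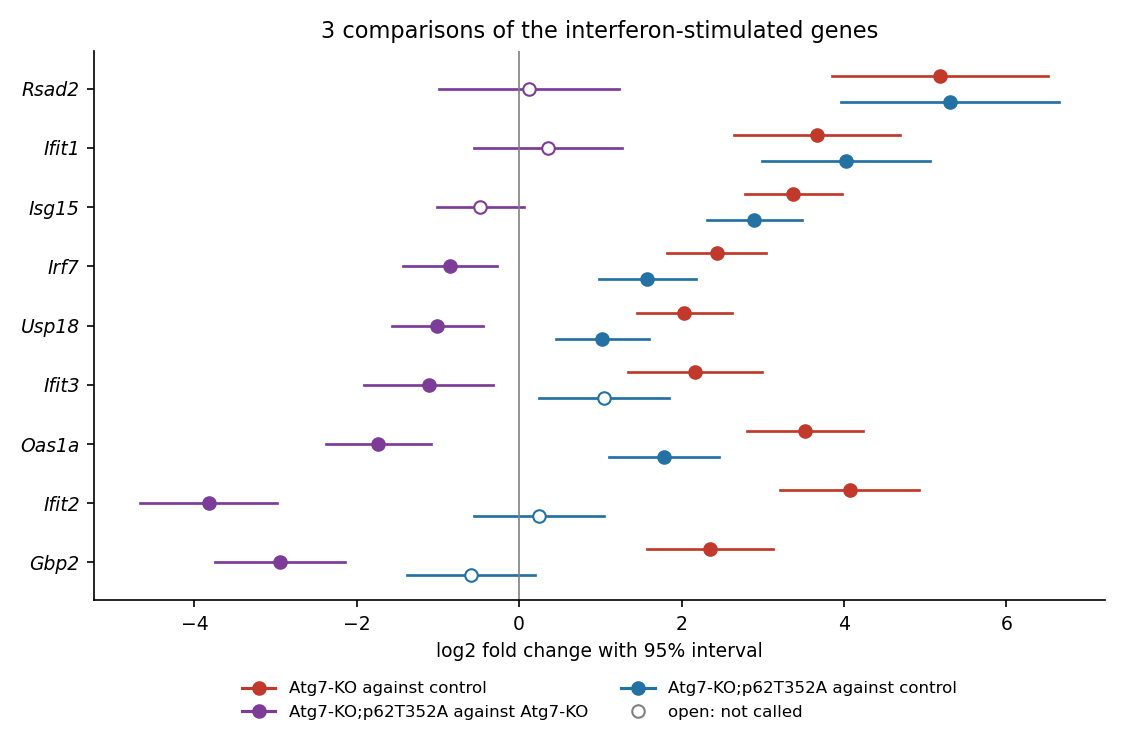
Log2 fold changes with 95% intervals of the 9 genes in 3 comparisons, filled points being called (adjusted p under 0.05 and fold change over 1.5). The intervals of Rsad2 and Ifit1 between both Cre genotypes span 0, whereas those of Ifit2 (-3.83) and Gbp2 (-2.95) lie far below it.

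The share of the Atg7-KO rise that was present in Atg7-KO;p62T352A, taken on the CPM scale from the control mean to the Atg7-KO mean, was 130% ± 87.5 (SD, n = 3) for Ifit1, 109% ± 85.9 for Rsad2 and 68.8% ± 24.0 for Isg15. It was 45.3% ± 24.9 for Irf7, 33.3% ± 18.5 for Usp18, 30.6% ± 22.7 for Ifit3 and 23.2% ± 14.4 for Oas1a. For Ifit2 it was 1.22% ± 3.63 and for Gbp2 -8.29% ± 6.70. The genes thus spread over the whole range, and the mice of neighbouring genes in this order overlapped except between Oas1a and Ifit2 and between Ifit2 and Gbp2.

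**Figure D3:**
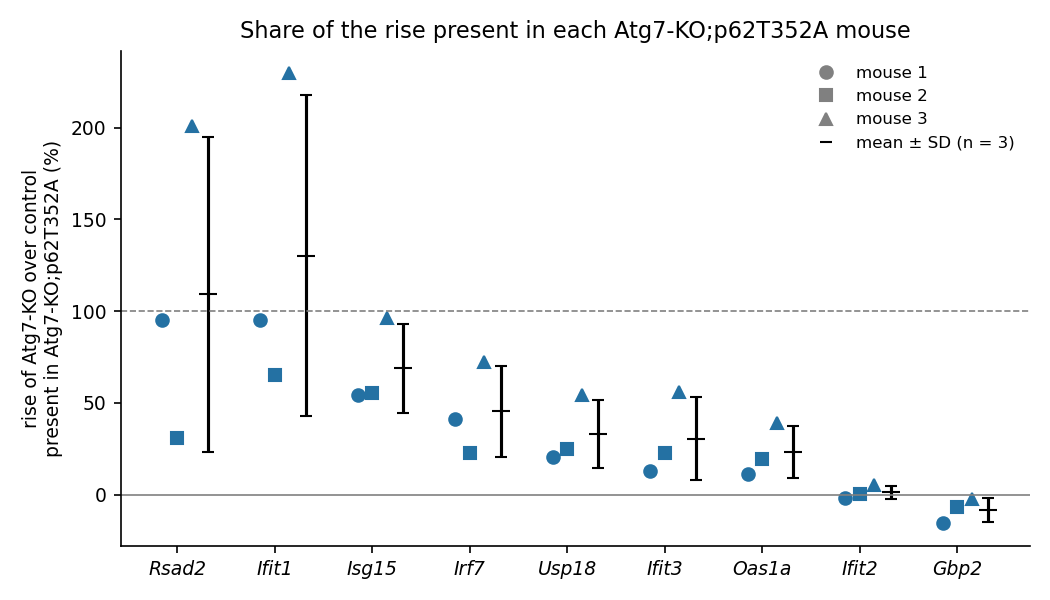
Percent of the rise from the control mean to the Atg7-KO mean that each Atg7-KO;p62T352A mouse showed, with mean ± SD (n = 3), for the 9 genes. Mouse 3 was the highest in every gene, at 201% for Rsad2 and 5.27% for Ifit2.

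Ratios within a mouse set pairs of genes side by side, free of the scaling of the library. The ratio of Ifit1 to Ifit2 CPM, from the same cluster on chromosome 19, was 1.60, 3.12 and 3.72 in control, 1.89, 2.03 and 1.96 in Atg7-KO and 44.4, 22.3 and 39.8 in Atg7-KO;p62T352A mice. The Atg7-KO mice lay within the range of the control mice, and all 3 Atg7-KO;p62T352A mice stood far above the other 6. The ratio of Rsad2 to Ifit2 was 2.55 to 4.89, 6.87 to 9.20 and 44.2 to 181 in the 3 genotypes, and that of Isg15 to Usp18 was 0.494 to 0.653, 1.31 to 1.48 and 1.92 to 2.05, without overlap between genotypes. For the divergent neighbours Rsad2 and Cmpk2 the ratio was 1.68 to 3.95, 4.27 to 5.28 and 7.44 to 12.8, also without overlap. For the paralogous neighbours the genotypes overlapped in part, with Oas1a to Oas1g at 0.877 to 2.57, 1.98 to 2.14 and 1.54 to 1.87 and Ifit3 to Ifit3b at 3.84 to 11.2, 2.72 to 3.13 and 5.39 to 7.40. The ratios are given as a description, with no test. The pairs followed no stated rule, and the share of other gene pairs without overlap between genotypes was not computed. Those with Ifit2 set members with a large share of the rise present beside 1 with a small share, so they restate these shares.

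Other interferon-stimulated genes, a list of 54 taken from knowledge of the pathway of which 52 were tested, included other antiviral effectors. In Atg7-KO against control 36 were called higher, 1 lower and 15 not, with a median log2 fold change of 1.34. Over all tested genes 21.6% were called higher and 22.1% lower in this comparison, with a median of -0.03. The largest rises were in Oasl1, an oligoadenylate synthetase-like protein (4.88 ± 0.39, adjusted p = 3.07e-05, edgeR), and Oas3, a synthetase of the same family as Oas1a (4.52 ± 0.35, adjusted p = 2.66e-05). In Atg7-KO;p62T352A against Atg7-KO, where 26.2% of all tested genes were called lower and 24.7% higher, 31 of the 52 were lower and 1 (Stat2) higher. Another 20 were not called, and the median of the list was -1.12. Oas3 fell the most, by 3.63 ± 0.32, to 1.96 to 4.31 CPM, beside 1.43 to 1.55 in control and 25.5 to 39.4 in Atg7-KO.

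Against control, where 6.25% of all tested genes were called higher and 5.34% lower, 12 of the 52 were called higher in Atg7-KO;p62T352A. None of the 52 was called lower and 40 were not called, with a median of 0.47. The highest was Cmpk2, a mitochondrial nucleotide kinase and the divergent neighbour of Rsad2, at 3.10 ± 0.43 (adjusted p = 0.00606, edgeR), not called with only the 2 genotypes in the fit (adjusted p = 0.0522). It was at 6.26 to 10.8 CPM in control, 124 to 169 in Atg7-KO and 32.4, 63.5 and 114 in the Atg7-KO;p62T352A mice numbered 2, 1 and 3, the order in which these mice also stood for Rsad2. The other 11 were Oasl1, Ifi44, Zbp1, Ifi27, Ifi27l2a, Ifi35, Ifitm3, Bst2, Eif2ak2, Isg20 and Dhx58. All 12 calls depended on the fit: with only the 2 genotypes in it, 0 of the 50 genes tested from this list were called. With glmTreat against a fold change of 1.5, 6 were called higher, and DESeq2 called 16 higher and 1 lower.

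In the pathway upstream, none of the 21 interferon genes passed the filter on low counts: 18 were at 0 in every mouse, and Ifnb1, Ifng and Ifnk had at most 5 counts in a mouse. At this depth a count of 0 allows up to 3 counts in a library. Among 14 genes of receptors and their signalling, 6 were called higher in Atg7-KO, 1 lower (Stat2) and 7 not. Over all tested genes 21.6% were called higher and 22.1% lower. Irf1 and Irf3, given beside these 14, were counted in the list of sensors and adaptors. The interferon gamma receptor chains Ifngr1 (1.86 ± 0.21, adjusted p = 0.000162, edgeR) and Ifngr2 (1.52 ± 0.29, adjusted p = 0.00234) rose. The type I receptor chains Ifnar1 (-0.29, adjusted p = 0.157) and Ifnar2 (0.09, adjusted p = 0.696) and the factors Irf9 (-0.17, adjusted p = 0.584) and Irf1 (-0.28, adjusted p = 0.491) were not called.

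Irf3, a factor that starts interferon gene transcription, fell by 1.40 ± 0.24 in Atg7-KO on the log2 scale (adjusted p = 0.00148, edgeR). Stat2 (-1.24 ± 0.43, adjusted p = 0.038) was at 60.2, 235 and 207 CPM in control and 63.2, 76.1 and 72.6 in Atg7-KO, so control mouse 1 overlapped the Atg7-KO mice. Its call was lost without control mouse 2 (adjusted p = 0.108) or 3 (0.101), without any Atg7-KO mouse (0.0858 to 0.111) and without Atg7-KO;p62T352A mouse 3 (0.0547). In Atg7-KO;p62T352A against Atg7-KO, 7 of the 14 were called lower, 1 higher (Stat2) and 6 not. Over all tested genes 26.2% were called lower and 24.7% higher. Ifngr1 (-1.84 ± 0.21) and Ifngr2 (-1.56 ± 0.29) fell (adjusted p = 0.000152 and 0.00169, edgeR), and Irf3 (1.73 ± 0.24, adjusted p = 0.000403) and Stat2 (1.5 ± 0.43, adjusted p = 0.0154) were higher. The call of Stat2 was lost without Atg7-KO mouse 1 (adjusted p = 0.0552) or Atg7-KO;p62T352A mouse 1 (0.055). Ifnar1 (0.39, adjusted p = 0.0574), Ifnar2 (0.36, adjusted p = 0.0976), Irf9 (0.56, adjusted p = 0.0674) and Irf1 (-0.02, adjusted p = 0.962) were not called, and Irf9 was called without Atg7-KO;p62T352A mouse 2 (0.73, adjusted p = 0.029).

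Against control, 1 of the 14 was called in Atg7-KO;p62T352A: Socs1, an inhibitor of Janus kinases, was higher by 1.54 ± 0.34 (adjusted p = 0.0222, edgeR) and by 1.76 ± 0.33 in Atg7-KO (adjusted p = 0.00249). It was scarce, at 0.802 to 0.879 CPM in control, 2.37 to 3.37 in Atg7-KO livers and 1.68 to 3.39 in Atg7-KO;p62T352A mice. The call in the latter was lost without control mouse 2 (adjusted p = 0.0662), Atg7-KO mouse 2 (0.0507) or Atg7-KO;p62T352A mouse 3 (0.0756), with glmTreat (0.107) and with only the 2 genotypes in the fit (0.104). Ifngr1, Ifngr2 and Stat2, all of which had been called in Atg7-KO, were among the 13 not called here. Over all tested genes 6.25% were called higher and 5.34% lower in this comparison.

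The list of sensors and adaptors, 23 genes mostly of nucleic acid sensing, also held Tlr4 and the kinases Tbk1 and Ikbke. The factors Irf1, Irf2, Irf3, Irf5 and Irf8 were counted in it too. In Atg7-KO against control 13 of the 23 were called higher and 3, Irf3 among them, lower. In Atg7-KO;p62T352A, 3 were higher and 10 lower against Atg7-KO, and 3 higher and 1 lower against control. The shares of all tested genes called higher and lower were 21.6% and 22.1%, 24.7% and 26.2%, and 6.25% and 5.34% in these 3 comparisons. Zbp1, a sensor of Z-form nucleic acid, rose by 3.09 ± 0.34 in Atg7-KO (adjusted p = 0.00014, edgeR) and was higher by 1.86 ± 0.33 in Atg7-KO;p62T352A than in control (adjusted p = 0.0104, and 0.0659 with only the 2 genotypes in the fit). Tlr9, a receptor for unmethylated DNA, was at 3.14 to 4.15 CPM in Atg7-KO, at 0 to 0.458 in control and at 0 in the 3 Atg7-KO;p62T352A mice, and exceeded the latter at least 17.7-fold in Atg7-KO (floor of 3 counts per library). Its rise in Atg7-KO against control was 3.82 ± 0.60 on the log2 scale (adjusted p = 0.00188, edgeR) and 5.08 without control mouse 1. Mavs, the adaptor of RNA sensors, was lower in Atg7-KO (-0.79 ± 0.21, adjusted p = 0.0134) and in Atg7-KO;p62T352A (-1.28 ± 0.22, adjusted p = 0.00958) than in control. The first call was lost without Atg7-KO mouse 1 (adjusted p = 0.0501) or 3 (0.0502) and with glmTreat (0.167), and the second with glmTreat (0.0564) and with only the 2 genotypes in the fit (0.0748).

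Of the 3 ISG15-conjugating enzymes, the ligase Herc6 (2.15 ± 0.29, adjusted p = 0.000447, edgeR) and the E2 enzyme Ube2l6 (1.11 ± 0.24, adjusted p = 0.00444) rose in Atg7-KO. Herc6 was lower in Atg7-KO;p62T352A than in Atg7-KO by -1.78 ± 0.29 (adjusted p = 0.000883). Against control Herc6 (0.37, adjusted p = 0.439) and Ube2l6 (0.74, adjusted p = 0.0699) were not called in Atg7-KO;p62T352A. A list of guanylate-binding and immunity-related GTPases, the families of Gbp2, also held Irf1, Nlrc5, Ciita and Ido1, which belong to other families. Of the 21 genes of this list that were tested, 12 were called higher in Atg7-KO and none lower. In Atg7-KO;p62T352A, 1 was called higher and 10 lower against Atg7-KO, and 1 was called lower against control. The shares of all tested genes called higher and lower were 21.6% and 22.1%, 24.7% and 26.2%, and 6.25% and 5.34% in these 3 comparisons. Gvin1 (3.81 ± 0.60, adjusted p = 0.000935) and Tgtp1 (3.43 ± 0.51, adjusted p = 0.00069) rose the most in Atg7-KO. The value of Gvin1 rested on Atg7-KO mouse 3, with 21.1, 18.2 and 81.9 CPM in the 3 mice, and was 2.77 without it. Gvin1 was at 1.82 to 3.79 CPM in Atg7-KO;p62T352A, a difference of -3.72 ± 0.59 from Atg7-KO (adjusted p = 0.000784) and of -2.68 without Atg7-KO mouse 3. Iigp1 was the gene called higher there (0.66 ± 0.19, adjusted p = 0.0152), a call lost without Atg7-KO mouse 1 (adjusted p = 0.0501) or 3 (0.0703) or Atg7-KO;p62T352A mouse 3 (0.0595).

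Among 18 negative regulators, the Atg7-KO livers had 5 called higher and 3 lower, beside 21.6% and 22.1% of all tested genes. In Atg7-KO;p62T352A against Atg7-KO 7 were called higher and 4 lower, beside 24.7% and 26.2% of all. Against control 2 were called higher in Atg7-KO;p62T352A, beside 6.25% of all. Rnaseh2b, a subunit of the enzyme that removes ribonucleotides from DNA, rose in Atg7-KO by 1.23 ± 0.34 (adjusted p = 0.0149, edgeR), a call lost without control mouse 2 (adjusted p = 0.0645) or Atg7-KO mouse 3 (0.0522). The corepressor Irf2bp2 (-1.31 ± 0.31, adjusted p = 0.00777) and the SUMO ligase Pias3 (-0.98 ± 0.25, adjusted p = 0.0111) were lower in Atg7-KO. Irf2bp2 was higher in Atg7-KO;p62T352A than in Atg7-KO by 1.86 ± 0.32 (adjusted p = 0.00115), and the deubiquitinase Usp25 lower by -1.53 ± 0.26 (adjusted p = 0.00115).

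In bulk tissue, fewer cells of a type and less RNA per cell cannot be told apart, and markers of other cells moved with the genotypes. The counts of called markers stand beside 21.6% of all tested genes called higher and 22.1% lower in Atg7-KO against control. For Atg7-KO;p62T352A these shares were 24.7% and 26.2% against Atg7-KO, and 6.25% and 5.34% against control. All 10 macrophage and monocyte markers were called higher in Atg7-KO and lower again in Atg7-KO;p62T352A, their summed level being 80.8 to 173 CPM in control, 673 to 729 in Atg7-KO livers and 67.3 to 126 in Atg7-KO;p62T352A mice. Against control, 4 of the 10 were called higher in Atg7-KO;p62T352A. Of these markers Lyz2, with the most counts, was at 292 to 341 CPM in Atg7-KO livers and 10.4 to 39.2 in Atg7-KO;p62T352A mice. The 4 pan-leukocyte markers, led by Laptm5, summed to 52.2 to 53.2, 228.5 to 239 and 52.1 to 68.5 CPM, and Laptm5 was not called between Atg7-KO;p62T352A and control (0.23, adjusted p = 0.442, edgeR). In 2 of the 3 Atg7-KO;p62T352A mice the pan-leukocyte sum was above that of every control mouse.

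Cholangiocyte markers, led by Spp1, were called higher in Atg7-KO in 5 of 6 genes and in Atg7-KO;p62T352A in 3 of 6 (33.4 to 51.3, 826 to 1023 and 181 to 266 CPM in sum), and stellate cell markers, led by Dcn, in 5 of 7 and 2 of 7 (234 to 291, 826 to 978 and 348 to 582 CPM). Hepatocyte markers, of which Alb was the most abundant, were called lower in Atg7-KO in 6 of 8 and in Atg7-KO;p62T352A against control in 1 of 8. Their sums were 74350 to 130900, 38240 to 40940 and 111500 to 127100 CPM in control, Atg7-KO and Atg7-KO;p62T352A. Sinusoidal endothelial markers (Stab2 the most abundant) were called higher in 3 and lower in 1 of 7 in Atg7-KO and lower in 4 of 7 in Atg7-KO;p62T352A against control (307 to 356, 311 to 324 and 159 to 196 CPM). Of 5 markers of plasmacytoid dendritic cells in the table, Tcf4 alone was called, higher in Atg7-KO;p62T352A than in either other genotype. Tcf4, which other cells express too, made up most of their sum (21.8 to 47.4, 25.6 to 34.9 and 56.5 to 94.1 CPM) with 19.7 to 44.0, 22.3 to 28.9 and 53.2 to 87.7 CPM. The other 4, Siglech, Ccr9, Spib and Runx2, were at most 3.13 CPM in any mouse, and they and Itgax, Flt3, Cd209a, S100a8 and S100a9 are named after their values were seen.

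Clec4f, Clec9a, Csf3r and Cd79a, which the rule named from their marker lists, were not called in Atg7-KO against control. Kupffer cell markers were called higher in 2 of 6 and lower in 1 in Atg7-KO against control (270 to 571, 505 to 615 and 294 to 453 CPM). T and NK cell markers (Cd8a) were called higher in 5 of 8 tested (6.99 to 9.34, 18.7 to 22.1 and 9.60 to 11.4 CPM), conventional dendritic cell markers in 3 of 6 (Itgax, Flt3 and Cd209a; 5.79 to 31.96, 26.4 to 27.1 and 13.1 to 25.6 CPM) and neutrophil markers in 2 of 3 tested (S100a8 and S100a9; 4.36 to 10.7, 10.4 to 16.2 and 7.29 to 9.79 CPM). B and plasma cell markers were called lower in 1 of 6 (6.93 to 18.2, 7.03 to 10.6 and 8.16 to 14.2 CPM). No marker in the table was at 0 in every mouse. Their part in the results on the interferon-stimulated genes was not tested.

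**Figure D4:**
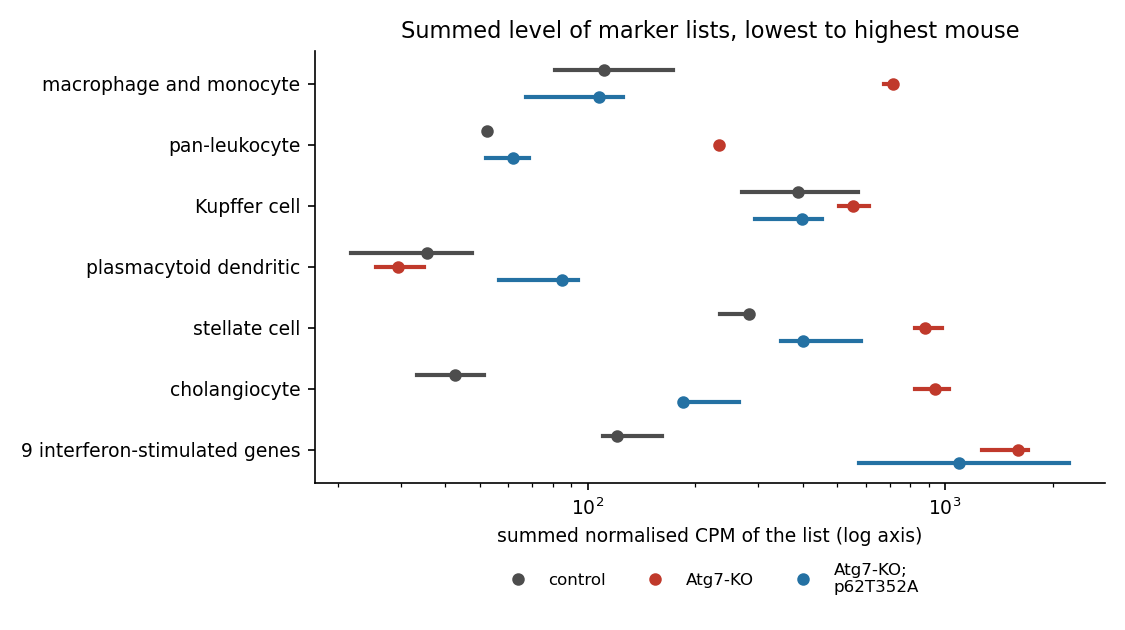
Summed normalised CPM (log axis) of some of the marker lists and of the 9 genes. Lines run from the lowest to the highest mouse, with points at the median of 3 mice. In Atg7-KO;p62T352A mice the macrophage (67.3 to 126 CPM), pan-leukocyte (52.1 to 68.5) and Kupffer cell sums (294 to 453) overlapped those of control mice. Of the 3 pan-leukocyte sums 2 were above every control mouse, and 4 of 10 macrophage markers were called higher than in control. The cholangiocyte (181 to 266 CPM), stellate cell (348 to 582) and plasmacytoid sums (56.5 to 94.1) were above every control mouse. So were those of T and NK cell markers (9.60 to 11.4), not drawn. The 9 genes summed to 574 to 2220 CPM in these mice and to 110.2 to 162 in control. Rsad2 (241 to 1452 CPM) and Ifit1 (122 to 393) were the largest parts, while Ifit2 and Gbp2 overlapped control.

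Across the 9 mice, the genes whose log2 CPM followed the mean standardised level of the members most closely, by Pearson's r, were Zbp1 (0.996), the collagen gene Col1a2 (0.993), Ifi44 (0.993), the annexin gene Anxa13 (0.992) and the secreted glycoprotein gene Fstl1 (0.991). These are descriptions over mice that fall into 3 genotypes, and 184 tested genes outside the members had an r over 0.95. By Spearman's rho 14 genes, Zbp1 among them, tied at 1, and the other 4 ranked lower. Among the members themselves, each of which is part of that mean, r with the mean level ranged from 0.72 for Gbp2 to 0.99 for Usp18. The summed level of the 9 genes was 110.2 to 162 CPM in control and 1271 to 1704 in Atg7-KO mice, and in Atg7-KO;p62T352A mice, where Rsad2 had the highest CPM of the 9 in every mouse, 574 to 2220.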

How the data were processed

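Liver poly(A) RNA was read by the authors in single-end runs of 75 bases, and Trim Galore, STAR (mm10) and RSEM gave the values. Deposited were unscaled expected counts, 1 column for each mouse, which were rounded here. Versions, annotation and strand setting are not given in the sources used here. The labels name an RNeasy kit for extraction, the study's methods TRIzol. Columns were assigned by genotype and mouse number, and 3 labelled mice without a column were not used.

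Genes were fitted in R 4.3.3 with edgeR 4.0.16 (filterByExpr, TMM, glmQLFit, glmQLFTest, 3 genotypes in 1 model, no block) and called at a Benjamini-Hochberg adjusted p under 0.05 and a fold change over 1.5. For likeness, log2 CPM were taken after adding a prior count (2). Totals of 9671080 to 23285132 counts left the spread between mice above counting error. Alternatives were DESeq2 1.42.0, other scalings, filters and thresholds, mouse number as a block, and each mouse left out. Positions came from GENCODE vM21, and levels per kb used the union of exons.

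The members and lists were chosen with earlier results of these data known. Named were the members, genes of the receptor pathway (1 of the 9 set for it is not reported here), the genes of each list with the largest called rises and falls (mean of at least 1 CPM, no overlap; 2 each way in Atg7-KO, 1 in the other comparisons), the 5 closest by likeness, Atg7, Sqstm1 and Xist, paralogs of members, and the most abundant marker of each list. The 11 genes listed beside Cmpk2 were named after their values were seen.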

Additional observations from a re-analysis of the deposited data

How the results depend on the processing

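The 3 comparisons of the 9 members gave 27 fold changes, each recomputed under 20 alternatives. Of these 540 values 508 kept their sign and their side of the threshold, 21 lost a call, 5 gained one and 6 changed sign, all 6 in uncalled values, and the 9 calls in Atg7-KO against control held in every alternative. With glmTreat against a fold change of 1.5, 3 members were called lower in Atg7-KO;p62T352A against Atg7-KO, and of the other interferon-stimulated genes 6 were called against control. With only the 2 genotypes compared in the fit, 3 members (Rsad2, Ifit1 and Isg15) were called in Atg7-KO;p62T352A against control and 0 other interferon-stimulated genes, by edgeR, with 7 and 18 at an unadjusted p under 0.05. DESeq2 on all 9 mice called 7 and 17. The fit of 2 genotypes took the spread from its own 6 mice, and that of 3 genotypes from all 9. In Atg7-KO;p62T352A against control the former called 23 of all genes higher and 27 lower. There the fit of 3 genotypes called 870 and 743, glmTreat 101 and 152 and the block 517 and 471. Mice numbered 2 and 3 alone gave 1314 and 1661. In Atg7-KO against control the fit of 2 genotypes called 2829 higher and 2645 lower, and between both Cre genotypes 3903 and 4047. The cause of this was not tested. glmTreat also called fewer genes in Atg7-KO against control (2138 higher and 1717 lower, beside 3006 and 3074) and between both Cre genotypes (2157 and 2561, beside 3443 and 3652).

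With 1 mouse left out, the members called were 9 to 9 in Atg7-KO against control, 4 to 7 in Atg7-KO;p62T352A against Atg7-KO and 5 to 7 against control, and the other interferon-stimulated genes called in either direction 33 to 36, 26 to 33 and 8 to 17. The log2 fold change between both Cre genotypes then ranged from -0.28 to 0.66 for Ifit1, from -0.63 to 0.56 for Rsad2 and from -0.075 to 0.047 for Irf1. In Atg7-KO against control the range was -0.033 to 0.22 for Ifnar2, -0.30 to 0.0071 for Irf9 and -0.62 to 0.12 for Irf1, which was called lower without control mouse 1 (adjusted p = 0.00936, edgeR). For Ifit2 in Atg7-KO;p62T352A against control it was -0.21 to 0.53. Upper-quartile normalization moved the median of all genes to 0.08 in Atg7-KO against control and to -0.14 between both Cre genotypes, and gave -0.0062 for Rsad2 in the latter. The cause of these changes was not tested.

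Genotypes share mouse numbers, but the study states no pairing. Deviations of same-numbered mice from their genotype means correlated by 0.223, -0.0303 and 0.247 on average for the numbers 1, 2 and 3, and 6 of 9 mice were closest to their own number. With mouse number as a replicate block Rsad2 was at -0.12 between both Cre genotypes, Ifit3 was called higher in Atg7-KO;p62T352A against control (1.05, adjusted p = 0.0296), Stat2 was not called in Atg7-KO (adjusted p = 0.0688), and no other call of a named gene changed. The choice of transcript moved per-kb levels: with the longest transcript Usp18 was at 8.06, 32.9 and 16.3 CPM per kb in control, Atg7-KO and Atg7-KO;p62T352A mice, beside 5.11, 20.9 and 10.4, and Irf7 at 62.6 in Atg7-KO. With Spearman's rho, 0 of the 5 genes closest by Pearson's r were counted among the 5 closest, 14 genes being tied for them. The promoter count of 6 held for the core followed by 1 more A.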
